A study of Arabidopsis thaliana with 8 samples.

Results

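WRKY53, WRKY33, WRKY40 and WRKY70, all of the WRKY family of plant transcription factors, were followed through leaf RNA of Arabidopsis thaliana grown with and without salt. They are 4 probe sets among the 22746 of the array that are not controls, and they were chosen by name as regulators of stress and senescence. The choice was made with earlier results of these data known. WRKY53 (AT4G23810) is probe set 254231_at, the single member that the array's gene table used here names. Probe sets 267028_at for WRKY33, 261892_at for WRKY40 and 251705_at for WRKY70 are assigned by the definition of the gene set, and these 3 assignments could not be checked against that table. RefSeq lists the 3 symbols at AT2G38470, AT1G80840 and AT3G56400.

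WRKY factors share a DNA-binding domain named after its conserved amino acids and bind W-box elements in the promoters of defence and stress genes, often those of other WRKY genes. Many are themselves switched on quickly by wounding, pathogens, reactive oxygen or salt, downstream of mitogen-activated protein kinase (MAP kinase) cascades. WRKY53 promotes leaf senescence. WRKY33 is a MAP kinase substrate needed for camalexin synthesis and resistance to necrotrophic fungi, and it also contributes to salt tolerance. WRKY40 is an early repressor that acts with its close relatives WRKY18 and WRKY60 in basal defence and abscisic acid signalling. WRKY70 acts where salicylic acid promotes and jasmonate opposes defence gene expression, and it holds back senescence.

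The 8 Affymetrix arrays form 4 groups of 2. Wild-type Col leaves came from plants given no NaCl (Col 0 mM) or 100 mM NaCl (Col 100 mM), and leaves of the transgenic line M6PR likewise (M6PR 0 mM, M6PR 100 mM). The transgene of M6PR encodes mannose-6-phosphate reductase, the celery enzyme of mannitol synthesis. The promoter of the transgene and the number of independent lines are not given in the sources used here, and transgene transcript was not analysed here. All plants were 20 days old, salt had begun on day 14 and was raised in steps of 50 mM, and each array holds leaves of at least 15 seedlings from its own pot, so p-values measure the spread between those pots. For the M6PR samples the sample descriptions give Ws as the accession and not Col, and the Col arrays also belong to another series. Accession, array batch and transgene therefore cannot be told apart in any comparison of the lines.

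Values are the deposited log2 intensities, means are over 2 arrays with their SD, and a probe set is called changed at a two-sided limma p under 0.05 after Benjamini-Hochberg adjustment over all 22746 probe sets. Levels below log2 4 are treated as background, so a fold against such a level is a lower bound. Levels of different probe sets are not comparable, and differences are compared within a probe set. The array medians lay between 5.01 and 5.31. Over all probe sets, M6PR 100 mM replicate 1 was nearest to an unsalted array, M6PR 0 mM replicate 1 (r 0.983), and then to its own replicate (0.982), and M6PR 100 mM replicate 2 was nearest to Col 100 mM replicate 2 (0.991), so results that rest on the salted arrays are given with and without them. In whole leaves, fewer cells that express a gene and less RNA of it per cell cannot be told apart. Of the leaf markers, RCA, the activase of Rubisco, lay between 14.52 and 14.82 on the 8 arrays and LHCB4.3, of the light-harvesting antenna, between 11.05 and 13.02. LHCB4.3 fell with salt in Col (−1.73, SE 0.16, limma adjusted p 0.0173), a call lost without 4 of the 8 arrays. Of the root markers, EXPA7, a root-hair expansin, stayed between 2.15 and 2.37. PYK10, a beta-glucosidase abundant in roots and seedlings, lay at 2.22 and 2.32 in Col 0 mM, 10.28 and 7.51 in Col 100 mM, 2.82 and 2.15 in M6PR 0 mM and 2.83 and 6.27 in M6PR 100 mM. The part of PYK10-expressing cells in the salt results below was not tested.

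The 4 WRKY genes differed in how salted and unsalted arrays were ordered. For WRKY53 and WRKY70 every one of the 4 salted arrays lay above all 4 unsalted arrays, with a margin of 1.26 log2 units for WRKY53 and of 0.25 for WRKY70, less than the 0.63 between the M6PR 0 mM replicates of WRKY70. That order held for 2 of the 4 genes and for 2.23% of all probe sets. WRKY33 and WRKY40 did not separate by salt. Their low values lay in Col 0 mM, far below the other 6 arrays, and unsalted M6PR leaves already stood high. Both Col 0 mM arrays were below the other 6 for each of the 4 genes, against 6.96% of all probe sets, but the gap was 2.38 log2 units for WRKY33 and 2.66 for WRKY40 and 0.07 for WRKY53 and 0.20 for WRKY70.

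**Figure D1:**
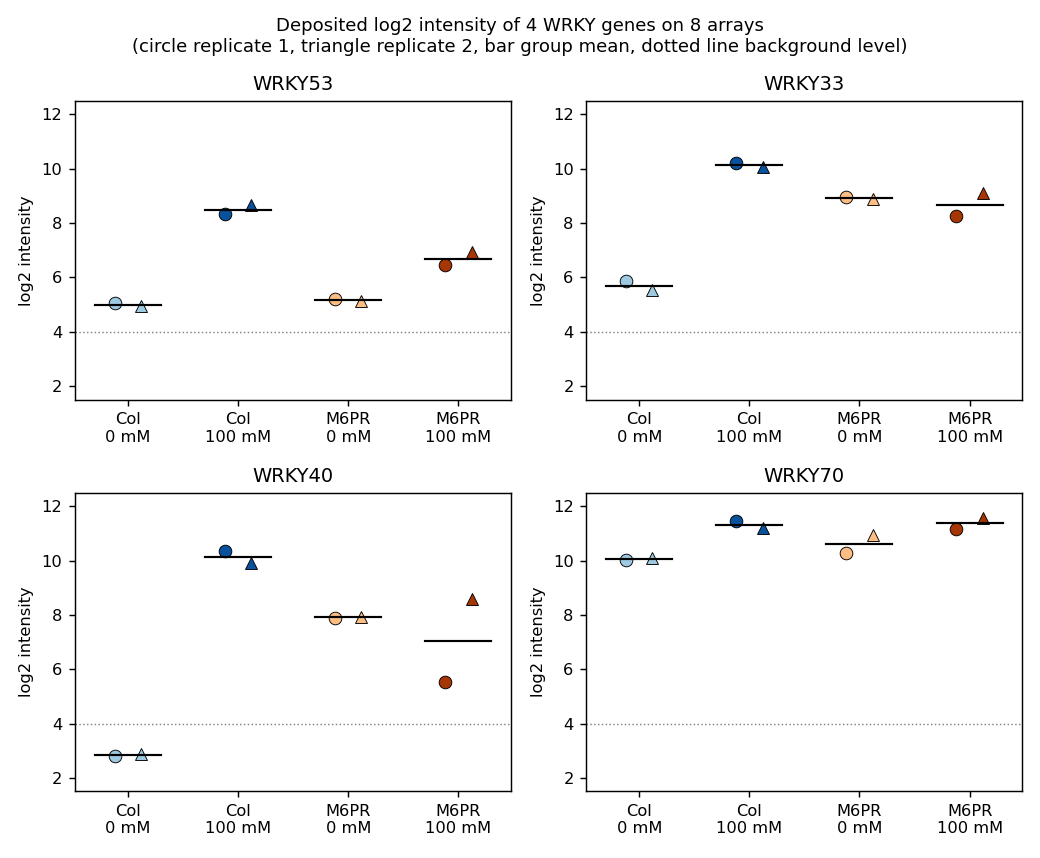
Log2 intensity (vertical axis) of WRKY53, WRKY33, WRKY40 and WRKY70 on the 8 arrays, by group (horizontal axis). Circles are replicate 1, triangles replicate 2, bars group means, and the dotted line is the background level of log2 4. WRKY53 is high in the salted groups, whereas WRKY33 and WRKY40 are low in Col 0 mM alone, and the M6PR 100 mM replicates of WRKY40 lie at 5.54 and 8.57.

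WRKY53 measured 5.05 and 4.95 in Col 0 mM, 8.33 and 8.65 in Col 100 mM, 5.20 and 5.12 in M6PR 0 mM and 6.46 and 6.93 in M6PR 100 mM. Unsalted leaves of both lines were low, salted M6PR leaves intermediate and salted Col leaves highest. No group overlapped another, and the share of all probe sets for which this holds was not counted. The order of the group means was Col 0 mM (4.998 ± 0.07), M6PR 0 mM (5.16 ± 0.06), M6PR 100 mM (6.69 ± 0.33) and Col 100 mM (8.49 ± 0.22, all SD, n = 2). None of the 3 neighbouring pairs passed the test over all probe sets, with limma adjusted p of 0.879, 0.106 and 0.0978 from the lowest pair to the highest.

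WRKY33 measured 5.87 and 5.53 in Col 0 mM, 10.23 and 10.08 in Col 100 mM, 8.95 and 8.88 in M6PR 0 mM and 8.25 and 9.11 in M6PR 100 mM. Salted Col leaves were highest, Col leaves without salt lowest, and the M6PR groups overlapped each other between them. The group means were 5.70 ± 0.24 for Col 0 mM, 8.68 ± 0.61 for M6PR 100 mM, 8.91 ± 0.05 for M6PR 0 mM and 10.15 ± 0.11 for Col 100 mM (SD, n = 2). The middle pair did not differ beyond its spread.

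WRKY40 measured 2.79 and 2.88 in Col 0 mM, 10.36 and 9.90 in Col 100 mM, 7.89 and 7.92 in M6PR 0 mM and 5.54 and 8.57 in M6PR 100 mM. The order of the groups was that of WRKY33, and Col leaves without salt lay below the background level. The group means were 2.83 ± 0.06 for Col 0 mM, 7.05 ± 2.14 for M6PR 100 mM, 7.91 ± 0.03 for M6PR 0 mM and 10.13 ± 0.33 for Col 100 mM (SD, n = 2). The salted M6PR arrays lay on either side of the unsalted ones and differed by 3.03 log2 units, a gap that 0.255% of all probe sets reached in that group. The other members differed less between these arrays, WRKY53 by 0.47, WRKY33 by 0.86 and WRKY70 by 0.40.

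WRKY70 measured 10.03 and 10.10 in Col 0 mM, 11.47 and 11.18 in Col 100 mM, 10.29 and 10.92 in M6PR 0 mM and 11.17 and 11.57 in M6PR 100 mM. It was well above background on every array and varied least of the 4 genes, over 1.54 log2 units, against 3.70 for WRKY53 and 4.70 for WRKY33, and WRKY40 ran from below background to 10.36. The group means were ordered Col 0 mM (10.06 ± 0.04), M6PR 0 mM (10.61 ± 0.44), Col 100 mM (11.33 ± 0.20) and M6PR 100 mM (11.37 ± 0.28, SD, n = 2). The salted groups of the lines overlapped, and none of the 5 comparisons passed the test for this gene.

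In Col wild type, the comparison that asks what 100 mM NaCl does to leaves without the transgene, 3 of the 4 WRKY genes rose and WRKY70 did not pass the test. WRKY53, the senescence factor, rose 11.3-fold, WRKY33 21.9-fold and WRKY40 at least 70.1-fold from below the background level. Of all probe sets, 2.25% were called higher with salt in Col and 2.99% lower. The log2 changes were 3.49 for WRKY53 (SE 0.20, limma adjusted p 0.0076), 4.46 for WRKY33 (SE 0.32, limma adjusted p 0.0118) and 7.30 for WRKY40 (SE 1.03, limma adjusted p 0.0401). The change of WRKY33 was the 102nd highest of 22746 and that of WRKY53 the 233rd, and that of WRKY40 is set against a level below background and is not ranked. WRKY70 differed by 1.26 (SE 0.27, 95% interval 0.54 to 1.98, limma adjusted p 0.0727), with no overlap between the groups. How many of all probe sets had no overlap between these groups was not counted.

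The call of WRKY53 held without any one of the 8 arrays (limma adjusted p 0.00872 to 0.0395). That of WRKY33 was lost without either M6PR 0 mM array (limma adjusted p 0.0517 each), which enter through the shared estimate of the spread. That of WRKY40 held without either M6PR 100 mM array (limma adjusted p 0.00475), where its replicates lie far apart, and was lost without any of the other 6 (0.0759 to 0.163). With both Col 100 mM replicate 1 and M6PR 100 mM replicate 1 left out, the changes were 3.65 for WRKY53, 4.38 for WRKY33 and 7.07 for WRKY40. WRKY70 was called in 3 of the 16 alternatives. These were centring each array on its median (limma adjusted p 0.0273), under which the median probe set stood at −0.22 and 18.7% were called, leaving out the dimmest 25% of probe sets (0.0303, 20.5% called) and leaving out those at the floor (0.0362, 16.8% called).

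In M6PR, 100 mM NaCl changed none of the 4 WRKY genes past the threshold, in a comparison where limma called 0.171% of all probe sets and 2405 had an unadjusted p under 0.05. WRKY53 differed by 1.53 log2 units or 2.90-fold (SE 0.20, 95% interval 1.01 to 2.06, limma adjusted p 0.106), with both salted arrays above both unsalted ones. WRKY70 differed by 0.76 (SE 0.27, 95% interval 0.04 to 1.48, limma adjusted p 0.440), also without overlap. The share of all probe sets without overlap between these groups was not counted. WRKY33 (−0.23, SE 0.32) and WRKY40 (−0.85, SE 1.03) had salted arrays on both sides of the unsalted ones, and their 95% intervals ran from −1.08 to 0.61 and from −3.62 to 1.92.

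The M6PR 100 mM replicates set the sign of the salt change of WRKY33 and WRKY40 but not that of WRKY53 and WRKY70. Without replicate 1 the changes were 1.77 for WRKY53, 0.20 for WRKY33, 0.66 for WRKY40 and 0.96 for WRKY70. Without replicate 2 WRKY33 was at −0.67, WRKY70 at 0.56 and WRKY40 at −2.37, and WRKY40 was then called lower (limma adjusted p 0.0340). With Col 100 mM replicate 1 also left out beside M6PR 100 mM replicate 1, WRKY53 was called higher (1.77, limma adjusted p 0.0397). WRKY53 was called as well after centring on array medians (1.52, limma adjusted p 0.0295), where 1.07% of all probe sets were called. In all, WRKY53 was called here in 2 of the 16 alternatives. Its limma adjusted p was 0.392 with the M6PR arrays alone in the fit and 0.191 with the replicate number as a block.

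**Figure D2:**
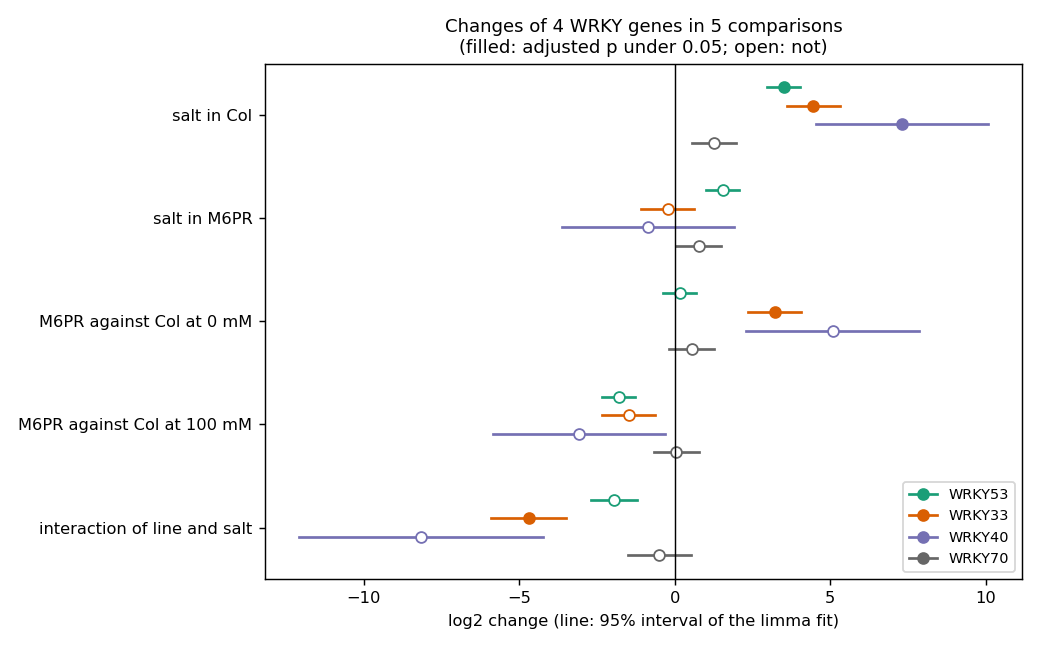
Log2 change (horizontal axis) of the 4 WRKY genes in 5 comparisons (vertical axis). Lines are 95% intervals of the limma fit, filled points passed an adjusted p under 0.05 and open points did not. WRKY33 and WRKY40 stand to the right for salt in Col and for M6PR against Col at 0 mM, whereas WRKY53 lies near 0 in the latter.

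Without salt, M6PR leaves differed from Col leaves in WRKY33, which was 9.29-fold higher in M6PR (log2 difference 3.22, SE 0.32, limma adjusted p 0.0150). Of all probe sets, 3.97% were called higher in M6PR at 0 mM, and 1 of the 4 WRKY genes was. WRKY40 differed by 5.07 (SE 1.03, limma adjusted p 0.0698), from below background in Col to 7.91 in M6PR, a fold of at least 15.0 that did not pass the test. The 2 M6PR arrays of WRKY40 agreed to 0.04 log2 units and the Col arrays to 0.08, while the fit's SE also holds the spread of the M6PR 100 mM arrays. With the 4 unsalted arrays alone in the fit, WRKY40 was called (limma adjusted p 0.00933), as it was without either M6PR 100 mM array (0.00759).

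WRKY53 and WRKY70 did not show such a difference between unsalted lines. WRKY53 differed by 0.16 (95% interval −0.37 to 0.69, limma adjusted p 0.879) and WRKY70 by 0.54 (95% interval −0.18 to 1.27, limma adjusted p 0.413). The difference of WRKY33 was lost as a call without Col 0 mM replicate 1 (limma adjusted p 0.0614), Col 0 mM replicate 2 (0.0647), M6PR 0 mM replicate 1 (0.0854) or M6PR 0 mM replicate 2 (0.0668), with differences from 3.05 to 3.39. This comparison and salt in Col subtract the same Col 0 mM arrays, so their values for WRKY33 (3.22 and 4.46) and WRKY40 (5.07 and 7.30) are not independent of each other.

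With 100 mM NaCl, none of the 4 WRKY genes differed between the lines past the threshold, where limma called 0.136% of all probe sets and 2947 had an unadjusted p under 0.05. WRKY53 was 8.49 in Col and 6.69 in M6PR (−1.80, SE 0.20, 95% interval −2.32 to −1.27, limma adjusted p 0.0978). The values for WRKY33 were −1.47 (SE 0.32, limma adjusted p 0.238) and for WRKY40 −3.08 (SE 1.03, limma adjusted p 0.361). Every M6PR array lay below both Col arrays for WRKY53, WRKY33 and WRKY40, and the share of all probe sets so separated was not counted. WRKY70 differed by 0.05 (95% interval −0.68 to 0.77). Without M6PR 100 mM replicate 2 the differences were −2.03 for WRKY53, −1.91 for WRKY33 and −4.59 for WRKY40. Without M6PR 100 mM replicate 1 they were −1.56, −1.04 and −1.56 in that order. Without both salted replicate 1 arrays they were −1.72, −0.97 and −1.33. These fits leave a salted group a single array, so only sizes are given. After centring on array medians WRKY53 was called (−1.60, limma adjusted p 0.0301), where 0.611% of all probe sets were called. With the 4 salted arrays alone in the fit, limma adjusted p was 0.677 for WRKY53, 0.811 for WRKY33 and 0.811 for WRKY40. With the replicate number as a block in the limma fit, adjusted p was 0.21, 0.372 and 0.455 in that order.

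The test of whether salt acted differently in the lines called WRKY33, whose salt change was 4.69 log2 units less in M6PR than in Col (−4.69, SE 0.45, limma adjusted p 0.0350). Of all probe sets, 0.932% were called with a lower salt change in M6PR, and 1 of the 4 WRKY genes was. WRKY53 (−1.96, SE 0.28, limma adjusted p 0.0634) and WRKY40 (−8.15, SE 1.46, limma adjusted p 0.0897) did not pass, and WRKY70 (−0.50, 95% interval −1.52 to 0.52, limma adjusted p 0.619) did not either. With 1 array left out, the difference ran from −2.20 to −1.72 for WRKY53 and from −9.67 to −6.63 for WRKY40. Both ranges ended at the fits without M6PR 100 mM replicate 2 and replicate 1. The SE of WRKY40 also holds the 3.03 log2 units between those replicates. The difference of WRKY33 was the 109th lowest of 22746, and that of WRKY40 holds the Col 0 mM level below background and is not ranked.

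The call of WRKY33 in this test held without M6PR 100 mM replicate 1 (limma adjusted p 0.0231), M6PR 100 mM replicate 2 (0.00443) or Col 100 mM replicate 2 (0.0462). It was lost without Col 0 mM replicate 1 (0.0712), Col 0 mM replicate 2 (0.0676), Col 100 mM replicate 1 (0.0727), M6PR 0 mM replicate 1 (0.109) or M6PR 0 mM replicate 2 (0.0821), with differences of −4.86 to −4.52. Leaving out the 25% of probe sets of lowest mean brought the tests of WRKY53 (limma adjusted p 0.0267) and WRKY40 (0.0337) past the threshold beside WRKY33 (0.0118), with 6.01% of the remaining probe sets called.

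**Figure D3:**
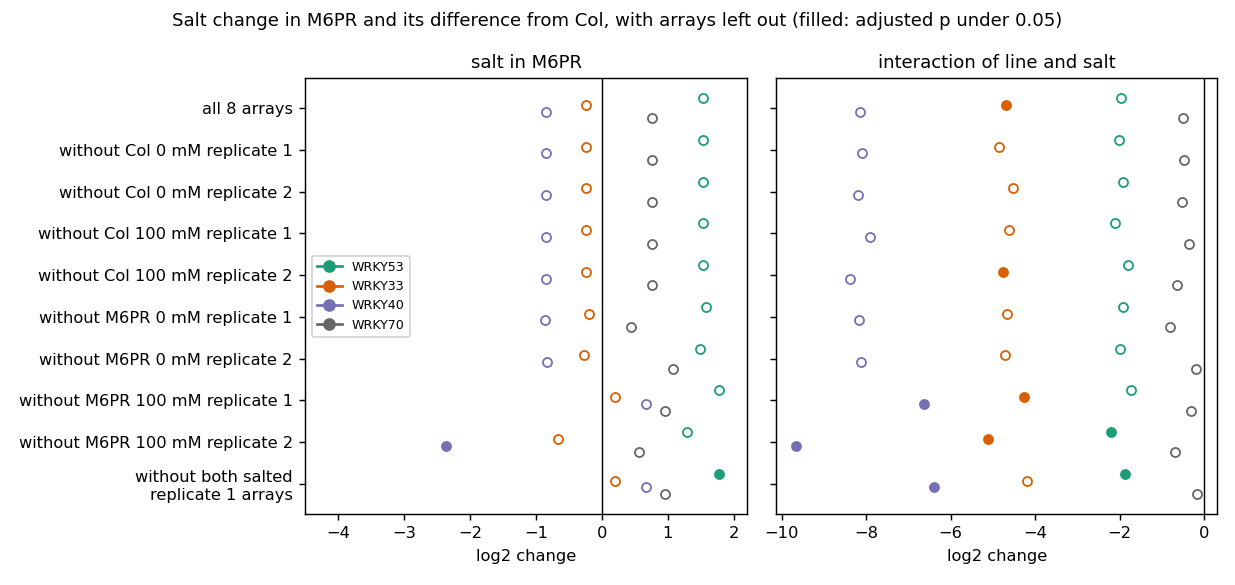
Log2 salt change in M6PR (left) and its difference from the salt change in Col (right) for the 4 WRKY genes, with all 8 arrays and with single arrays or both salted replicate 1 arrays left out (vertical axis). Filled points passed an adjusted p under 0.05. WRKY40 moves from −2.37 to 0.66 in the left panel as either M6PR 100 mM array is left out, and in the right panel all values are below 0.

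Other WRKY genes could be read from 6 further probe sets that the array's gene table used here names, of 72 genes that RefSeq names WRKY. WRKY22, which acts after a MAP kinase cascade in the response to bacterial flagellin, was the one called. Like WRKY33 and WRKY40 it was lowest in Col 0 mM, but its highest group was M6PR 0 mM. It measured 2.22 and 2.59 in Col 0 mM, 6.86 and 6.58 in Col 100 mM, 7.55 and 7.36 in M6PR 0 mM and 4.42 and 6.19 in M6PR 100 mM. Col leaves without salt were below background, and every other array was above it. WRKY22 rose with salt in Col (4.31, SE 0.62, at least 6.59-fold, limma adjusted p 0.0409) and was higher in M6PR than in Col at 0 mM (5.05, SE 0.62, at least 11.0-fold, limma adjusted p 0.0230). Its salt change in M6PR was −2.15 (limma adjusted p 0.335) and its interaction −6.46 (0.0588). As for WRKY40, the call for salt in Col held without either M6PR 100 mM array and was lost without any of the other 6 (limma adjusted p 0.0781 to 0.169). So was the call against Col at 0 mM (limma adjusted p 0.0601 to 0.117).

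The other 5 WRKY genes passed no test in any of the 5 comparisons. WRKY6, which acts in senescence and in pathogen responses, measured 4.96 and 5.10 in Col 0 mM, 5.91 and 7.37 in Col 100 mM, 6.31 and 5.76 in M6PR 0 mM and 5.92 and 5.92 in M6PR 100 mM. Col leaves without salt were again lowest, and the salted Col replicates differed widely. WRKY47 was at 6.28 ± 0.76 in M6PR 0 mM and between 4.44 and 4.66 in the other group means. WRKY1 and WRKY20 varied little, over 8.36 to 8.89 and 7.94 to 8.70, and WRKY42, a regulator of phosphate homeostasis, lay at the floor of 2.15 on every array. The median change of the 6 genes with salt in Col was −0.05, against 0.00 over all probe sets, with 1 called higher and 0 lower by limma, and 6210 probe sets had an unadjusted p under 0.05.

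Genes around the WRKY factors were read from short lists, few of whose genes the array's gene table used here matched to a probe set. That table names no gene for 8730 probe sets, and WRKY33, WRKY40 and WRKY70 are likewise missing from it. Unmatched genes may therefore have a probe set on the array, and measured below means matched through that table. Of the MAP kinase and partner genes 2 of 16 were measured. PUB23, a ubiquitin ligase that dampens defence signalling, rose 13.5-fold with salt in Col (3.76, SE 0.41, limma adjusted p 0.0253) and was 10.4-fold higher in M6PR than in Col at 0 mM (3.38, SE 0.41, limma adjusted p 0.0226). It measured 4.05 and 4.09 in Col 0 mM and between 7.21 and 8.18 on the other 6 arrays. Both calls of PUB23 were lost without any 1 of the 4 unsalted arrays (limma adjusted p up to 0.114), and that for salt also without Col 100 mM replicate 1 (0.0513). PUB22, its close relative, stayed below background throughout.

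Of the rapid elicitor and wound genes 3 of 23 were measured and all 3 were called higher with salt in Col, against 2.25% of all probe sets. The list was chosen with earlier results of these data known. CML38, a calmodulin-like calcium sensor, measured 4.80 and 4.79 in Col 0 mM, 9.18 and 8.97 in Col 100 mM, 9.72 and 9.67 in M6PR 0 mM and 8.11 and 9.29 in M6PR 100 mM, which is the order of WRKY22. It rose 19.3-fold with salt in Col (4.27, SE 0.40, limma adjusted p 0.0186), a call lost without 5 of the 8 arrays (up to 0.0827), and was 29.8-fold higher in M6PR than in Col at 0 mM (4.90, SE 0.40, limma adjusted p 0.0112), a call lost without M6PR 0 mM replicate 1 (0.0647) or Col 0 mM replicate 1 (0.0552). Its salt change differed between the lines by −5.27 (SE 0.57, limma adjusted p 0.0414), a call that held without either M6PR 100 mM array and was lost without any of the other 6 (up to 0.129). STZ, a zinc finger repressor of stress responses, measured 4.69 and 5.05 in Col 0 mM, 11.20 and 11.84 in Col 100 mM, 9.63 and 9.78 in M6PR 0 mM and 10.00 and 11.07 in M6PR 100 mM. Col 0 mM lay at least 4.59 log2 units below every other array, and all salted arrays lay above all unsalted ones, by a margin of 0.22. STZ was 28.6-fold higher in M6PR than in Col at 0 mM (4.84, SE 0.44, limma adjusted p 0.0131). That difference ran from 4.66 to 5.02 with 1 array left out. STZ rose with salt in Col (6.65, SE 0.44, limma adjusted p 0.01), without any one array too (up to 0.0463). CML37, a relative of CML38, rose with salt in Col from the floor to 4.23 (2.08, SE 0.26, limma adjusted p 0.0321), at least 1.18-fold, and stayed below background in both M6PR groups, unlike WRKY33 and WRKY40. The call of CML37 was lost without 5 of the 8 arrays (limma adjusted p up to 0.133).

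Of the senescence genes 2 of 19 were measured. SAG101, a lipase-like defence protein that partners EDS1, was 2.48-fold higher in M6PR than in Col at 0 mM (1.31, SE 0.15, limma adjusted p 0.0208) and differed by 0.21 with salt in Col, where WRKY53 rose 11.3-fold. That call of SAG101 was lost without any 1 of the 4 Col arrays. It was also lost with the 4 unsalted arrays alone in the fit (limma adjusted p 0.106). SAG29, a sugar transporter of senescing leaves, measured 6.29 and 6.24 in Col 0 mM, 4.06 and 8.80 in Col 100 mM, 3.19 and 4.14 in M6PR 0 mM and 6.91 and 6.87 in M6PR 100 mM, and passed no test. Its change with salt in Col was 0.16 with a 95% interval of −4.20 to 4.52, and in M6PR it was 3.23 (SE 1.63, limma adjusted p 0.676). PDF1.2, a jasmonate and ethylene marker that WRKY70 is known to restrain, was the single jasmonate gene measured of 19. It lay at 11.41 and 11.02 in Col 0 mM and 6.63 and 6.43 in Col 100 mM (−4.69, SE 1.81, limma adjusted p 0.194). Its M6PR replicates, which enter that SE, were 12.45 and 8.32 without salt and 10.40 and 6.99 with salt, and with the 4 Col arrays alone in the fit PDF1.2 was called. The listed salicylic acid, abscisic acid and camalexin genes were not analysed here.

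**Figure D4:**
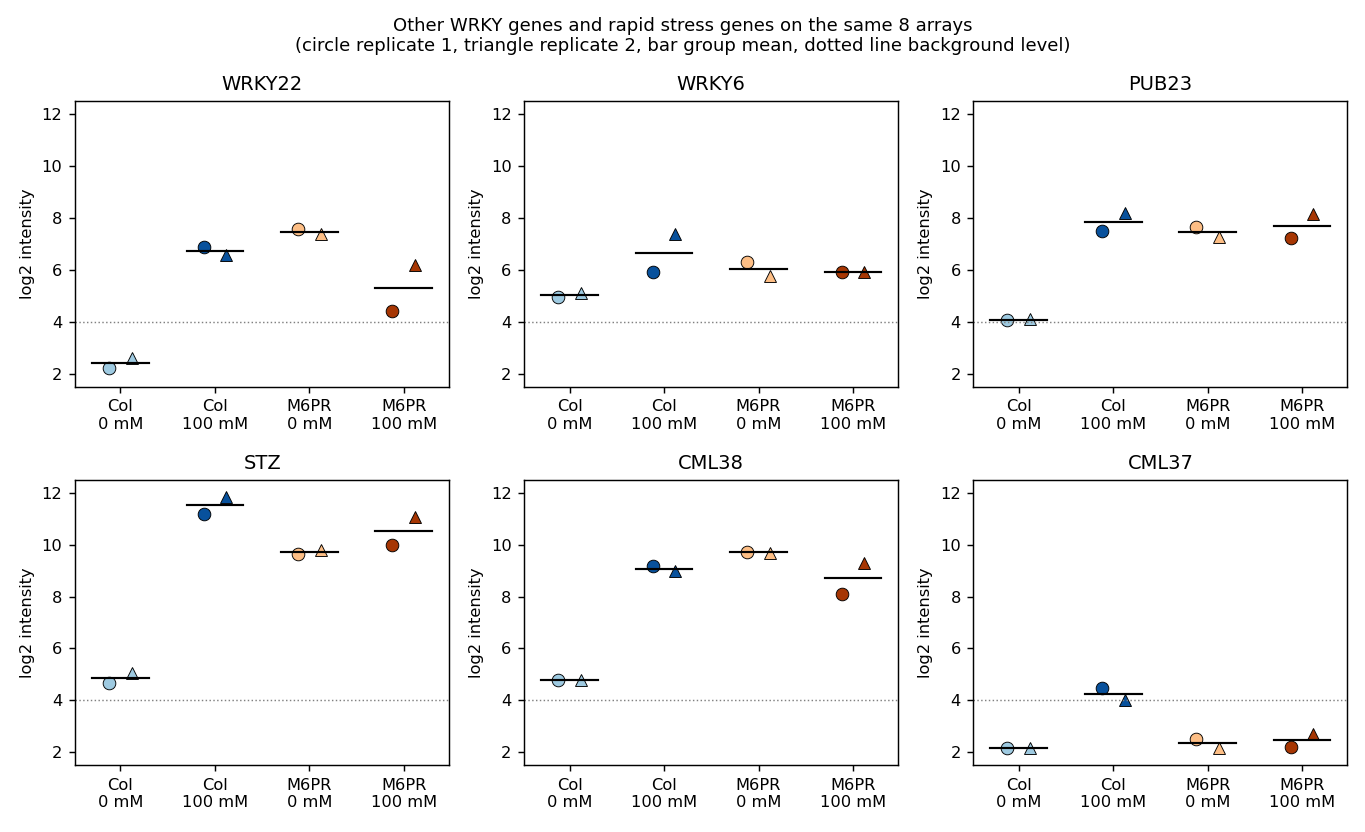
Log2 intensity (vertical axis) of WRKY22, WRKY6, PUB23, STZ, CML38 and CML37 by group (horizontal axis), drawn as for the 4 WRKY genes. WRKY22, PUB23, STZ and CML38 are low in Col 0 mM and higher in each of the other groups, whereas CML37 exceeds the background level of log2 4 in Col 100 mM.

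Across the 8 arrays WRKY33 and WRKY40 were the closest pair of the 4 (Pearson r 0.982), and the other 5 pairs had r between 0.743 and 0.801. These correlations describe 8 arrays of 4 groups, so replicates share their group's level, and they carry no test. The genes most like each member were taken from 3966 probe sets of a single named gene with a mean above log2 4 and a range of at least 1 log2 unit. They were chosen by their r with the member, so a shared order of groups follows from that choice. WRKY33 and WRKY40 shared 2 of their 5 most alike genes, AT1G23710 and AT3G57450, and no other pair of members shared any.

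The genes most like WRKY33 were AT1G23710 (r 0.992), AT3G57450 (0.991), AT3G56880 (0.986), AT1G76600 (0.986) and AT3G10930 (0.984). The group means of AT1G23710 were 4.60 in Col 0 mM, 8.12 in Col 100 mM, 6.83 in M6PR 0 mM and 6.64 in M6PR 100 mM, the order seen for WRKY33. Those of AT1G76600 were 6.03, 11.59, 10.92 and 10.24 in the same order of groups. WRKY40 was most like AT1G66090 (r 0.992), AT3G57450 (0.986), AT1G30820 (0.984), AT1G23710 (0.982) and AT5G17850 (0.979). AT1G66090 had means of 4.33, 8.14, 6.96 and 6.57 in that order and, like WRKY40, was lowest in Col without salt.

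WRKY53 was most like AT3G15590 (r 0.975), AT3G53980 (0.973), AT5G39960 (0.973), AT3G02480 (0.972) and AT2G20060 (0.967). AT3G02480 had group means of 2.50 in Col 0 mM, 10.45 in Col 100 mM, 2.90 in M6PR 0 mM and 8.16 in M6PR 100 mM. Its unsalted means lay below the background level in both lines, and its mean was higher in salted Col than in salted M6PR. WRKY70 was most like AT4G30650 (r 0.973), AT1G77640 (0.968), COR15B (0.959), AT5G64150 (0.956) and AT5G57100 (0.956). COR15B, a cold-regulated protein that protects chloroplasts during freezing, had means of 9.02, 11.11, 10.03 and 11.09 in the same order of groups, with the salted lines level as for WRKY70.

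**Figure D5:**
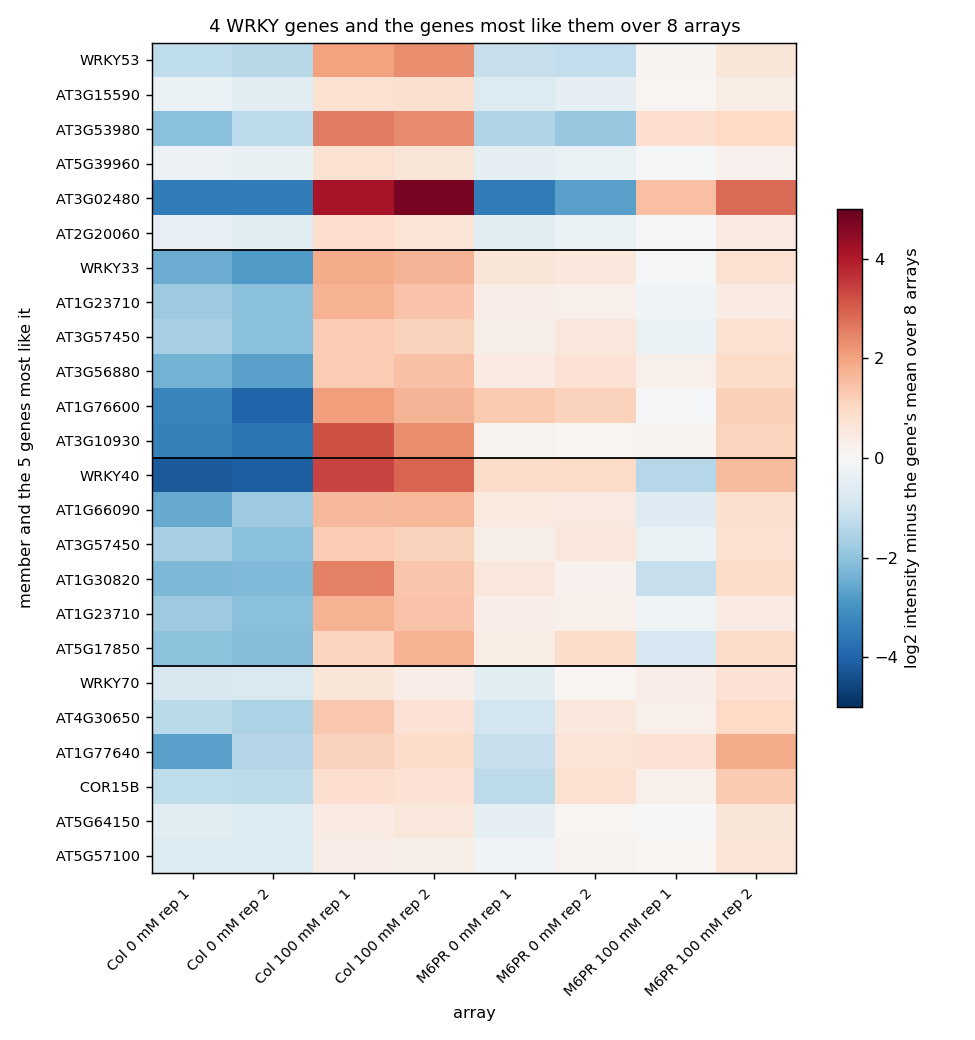
Log2 intensity minus each gene's mean over the 8 arrays (colour) for the 4 WRKY genes and the 5 genes most like each (vertical axis), by array (horizontal axis). Blocks led by WRKY33 and WRKY40 are blue in Col 0 mM alone, apart from pale values on M6PR 100 mM replicate 1, whereas the block led by WRKY53 is blue in both unsalted groups.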

How the data were processed

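The deposited table holds log2 intensities, 1 per probe set and array, which the authors made with GCOS and RMA per the submitters' processing notes. Versions, the background model and the arrays normalized together are not given in the sources used here. The lowest deposited value is 2.15, and per array 27.9% to 29.2% of probe sets are at most 0.01 above it, so lower levels cannot be seen. The number of arrays limits the precision. An exact permutation test of 2 arrays against 2 cannot go below p 0.333, so limma was used throughout.

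After removal of 64 control probe sets, 22746 were tested. The array's gene table named 1 gene for 13513, several for 503 and none for 8730. RefSeq (TAIR10.1) served for names. A mean for each of 4 groups, taken from the sample titles, was fitted per probe set with limma 3.58.1 in R 4.3.3 (4 residual and 0.409 prior degrees of freedom), with 5 contrasts and Benjamini-Hochberg adjustment across all probe sets. The fit was tested on simulated data. The members and lists were chosen with earlier results of these data known, as was the background level of log2 4. Named are the members, up to 3 called genes per list, direction and comparison, the other WRKY genes, and the 5 probe sets of highest Pearson r with each member; list genes without a call are named after their values were seen. Figures were drawn with matplotlib 3.10.9.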

Additional observations from a re-analysis of the deposited data

Results flagged for a closer look

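The difference between the salt changes of the lines passed the test for WRKY33 (−4.69 log2 units, limma adjusted p 0.0350), and for CML38 (−5.27, 0.0414) and STZ (−5.82, 0.0410) among the list genes. In each case the salt change was smaller in M6PR than in Col, and the M6PR 0 mM level was already above that of Col 0 mM. The test was lost for WRKY33 without 5 of the 8 arrays, and for CML38 and STZ without 6 of the 8. Groups of 2 arrays were too small to look for single outlying arrays.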

How the results depend on the processing

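WRKY53 was called for salt in Col under all 16 alternatives run, WRKY33 under 14 and WRKY40 under 9. Of 522 alternative values of single changes, 396 kept direction and side of the threshold, 89 lost the call, 31 gained one and 6 changed sign. With 1 array left out, the salt change in M6PR ran from −0.67 to 0.20 for WRKY33 and from −2.37 to 0.66 for WRKY40. It was above 0 without M6PR 100 mM replicate 1 and, at 0.20 and 0.66, without both salted replicate 1 arrays, Col 100 mM and M6PR 100 mM. WRKY70 at 100 mM ran from −0.15 to 0.25, below 0 without M6PR 100 mM replicate 2 (−0.15) or Col 100 mM replicate 2 (−0.10).

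Of the 4 WRKY genes, leaving out 1 array called 1 to 3 for salt in Col, 0 to 1 for salt in M6PR, 0 to 2 at 0 mM, 0 to 3 at 100 mM and 0 to 3 for the interaction, where 1.11% to 11.5%, 0.044% to 3.64%, 2.34% to 8.02%, 0.0308% to 5.33% and 1.09% to 9.82% of all probe sets were called. Of the 6 other WRKY genes it called 0 to 2, 0 to 1, 0 to 2, 0 to 1 and 0 to 2. Centring, leaving out the dimmest and leaving out the floor each called 4 of the 4 for salt in Col (16.8% to 20.5% of all probe sets). Centring on array medians called 1 of the 4 in M6PR (1.07% of all probe sets), 2 at 0 mM (9.65%), 1 at 100 mM (0.611%) and 3 in the interaction (4.49%). It also called 2 other WRKY genes for salt in Col and 1 in the interaction. Leaving out the dimmest 25% called 2, 1 and 3 of the 4 at 0 mM, at 100 mM and in the interaction, and 1 other. Of the remaining probe sets it called 13.8%, 0.41% and 6.01%. Leaving out probe sets at the floor called 2 at 0 mM and 3 in the interaction, and 1 other, with 12.8% and 5.2% of the remaining probe sets called. The compared groups alone called 2 at 0 mM (5.79% of all probe sets). There PUB23, CML37 and LHCB4.3 lost the call for salt in Col (limma adjusted p 0.0631, 0.0716 and 0.0705), and SAG101 lost that at 0 mM (0.106). Leaving out both salted replicate 1 arrays leaves each salted group a single array, so only sizes are given. The interaction was then −1.88 for WRKY53, −4.18 for WRKY33, −6.40 for WRKY40 and −0.16 for WRKY70.

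The labels do not say that a replicate number marks a shared batch. Correlations of replicate differences were 0.486 between the M6PR groups and −0.151 to 0.081 between the other pairs of groups, so the numbers were not used as pairs. The fit with the replicate block called 2 of the 4 for salt in Col (WRKY40 at limma adjusted p 0.0785), 1 at 0 mM and 0 in the interaction (WRKY33 at 0.09, STZ at 0.0598 and CML38 at 0.0945, with 53 of all probe sets and 3898 at unadjusted p under 0.05), and 0 other WRKY genes for salt in Col and at 0 mM. PUB23, CML37 and CML38 lost the call for salt in Col there (0.0565, 0.0749 and 0.0518). Of all probe sets, 1193 were called for salt in Col, against 497 with the block, 4254 centred, 3491 without the dimmest and 253 without either M6PR 0 mM array. Higher calls were 512 of 1193, and 1388 of 4254 when centred. For the interaction the count was 330, against 1022 centred, 1025 without the dimmest and 939 without the floor. The cause of these shifts was not tested beyond the fewer probe sets or arrays. The 2 arrays per group limit precision.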
